A study of Schizocosa ocreata with 10 samples.

Results

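Serpin genes were examined in brain RNA of Schizocosa ocreata, a wolf spider. A gene was taken as a serpin when its annotation listed the Pfam domain PF00079 and it had read counts, which gave 23 of 25922 genes. The study compared immature (subadult) with mature (adult) spiders of both sexes. Each library came from the brain of 1 field-collected spider, with 2 libraries from immature females, 3 from immature males, 3 from mature females and 2 from mature males. No group carried a treatment or an altered genotype. Mature spiders were dissected 24 hours after their final molt, whereas the time left before the next molt was unknown for immature spiders. The dissected tissue may also hold oesophagus.

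Serpins are a large family of protein inhibitors, most of which block serine proteases. A typical inhibitory serpin offers the protease a reactive centre loop near its C-terminal end as bait. When the protease cuts this loop, the serpin changes shape and traps the enzyme in a covalent complex, so that both molecules are used up. In arthropods, secreted serpins restrain the protease cascades of the blood that lead to melanin formation and to activation of the Toll pathway. Other serpins act inside cells, and in mammals neuroserpin limits proteases around neurons.

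Names of the spider genes are those of their best match in Drosophila, and identity to that match was between 23.32% and 42.59%. A Drosophila match was given for 22 of the 23 genes, and all 22 were named serpins. Spn42Da was the match of 9 genes. In Drosophila, alternative exons give this gene several reactive loops, and its product can inhibit furin-type proteases, which process peptide hormones. Spn55B was the match of 4 genes, while Spn42De and Spn43Aa were matched by 2 genes each. A single gene matched each of Spn28B, Spn38F, Spn42Dd, Spn88Ea and Spn88Eb. For Gene009907 the named match was Spn55B, although its protein alignment was to Spn38F. Gene023937 had no Drosophila match and resembled HMSD, a human serpin-like protein. The 3 genes that matched the fly symbol Spn are no members, since that symbol stands for spinophilin and they lacked the domain.

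The serpin domain covered at least 350 residues in 9 genes, and these were treated as full-length (350 to 373 residues). The other 14 were partial. Of these, 5 aligned to the N-terminal part of the fly protein, 3 to its middle and 5 to the C-terminal part, and Gene023937 had no alignment. Only C-terminal and full-length genes extend towards the region where serpins carry the reactive loop. Some partial genes could therefore be pieces of the same transcript, which would put the number of distinct serpins below 23. The authors also grouped coding sequences into genes by similarity, so a gene could join similar serpins. Neither was tested. A signal peptide, which marks a protein for secretion, was predicted in 8 genes. These were 5 of the 9 full-length genes (Gene005463, Gene007576, Gene009907, Gene022340 and Gene025811) and 3 N-terminal pieces (Gene003578, Gene021531 and Gene022892). In Gene021531 the serpin domain began only at residue 224 of 342, behind a long stretch without an assigned domain.

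Totals per library lay between 3481348 and 11789754 counts, and serpins held between 1610 and 8653 of them (0.0369% to 0.0748%). All 23 serpin genes passed the filter on low counts and were tested together with 24930 genes in all. Levels are given as CPM, the TMM-scaled counts in 1000000. The 26 genes matching neuronal markers and the 23 matching muscle markers were read in every library, so RNA of both kinds was present throughout. Neuronal markers summed to between 2194 and 5582 CPM and muscle markers to between 52509 and 157652 CPM. Reads of neuronal markers alone cannot test the brain label. In such bulk samples, fewer cells of a type and less RNA per cell cannot be told apart. Counts of 4 serpin genes are less certain, because Gene005463, Gene017847, Gene022340 and Gene025811 each overlapped another reading frame on their contig and the use of strand in counting was not stated. P-values measure the spread between individual spiders, of which each group holds only 2 or 3. How reads shared by similar genes were placed was not stated either. This could bear on the 9 genes that matched Spn42Da, although their similarity to each other was not measured.

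The summed serpin level was higher in both immature females than in any other library. It was 675.3 CPM in immature female 2 and 663.8 CPM in immature female 3. The other 8 libraries lay between 365.8 CPM (immature male 1) and 495.0 CPM (mature female 2). By group the sum was 669.5 ± 8.16 CPM (SD, n = 2) in immature females and 423.8 ± 53.5 CPM (SD, n = 3) in immature males. It was 485.2 ± 13.6 CPM (SD, n = 3) in mature females and 396.4 ± 20.9 CPM (SD, n = 2) in mature males. The sum is a description of these libraries and was not tested.

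The immature females reached similar sums, of which Gene005463 gave 252.9 CPM in immature female 2 and 247.3 CPM in immature female 3, but some other genes differed. Gene022340 alone gave 84.3 CPM in immature female 2 and 0.44 CPM in immature female 3. Gene000469 gave 28.7 and 64.0 CPM, respectively. Without Gene022340 the sums were 591.0 and 663.3 CPM, still above the next library at 494.7 CPM. Haemocyanin, the oxygen carrier of spider blood, summed to 2347 CPM in immature female 2 and 15715 CPM in immature female 3, against 114.2 to 2842 CPM in the other libraries. The 66 genes of trypsin-like proteases summed to 2589 and 894.4 CPM, against 738.6 to 1850 CPM elsewhere. Both muscle and neuronal markers were lowest in immature female 2, muscle at 52509 CPM against at least 76539 CPM and neuronal at 2194 CPM against at least 2515 CPM in the other 9 libraries. Astacin proteases were highest there, at 2835 CPM against at most 2484 CPM. In immature female 3 neuronal markers were at 3707 CPM, muscle markers at 92288 CPM and astacin proteases at 167.7 CPM, the lowest of the 10 libraries. The part of these in the serpin level was not tested.

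**Figure D1:**
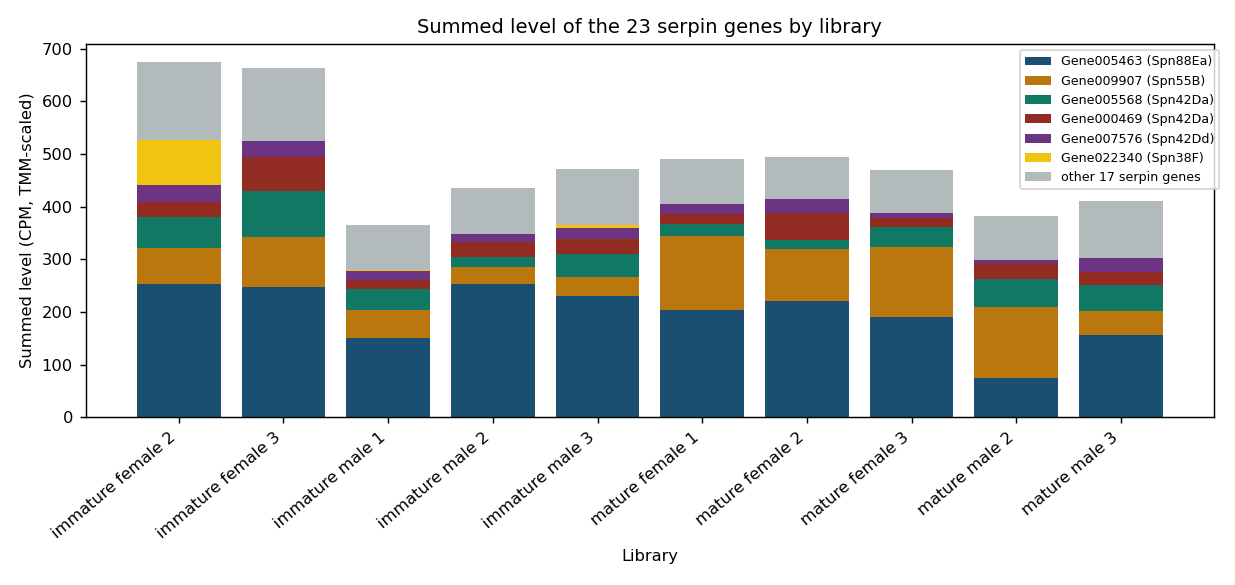
Summed level of the 23 serpin genes in each library (vertical axis, TMM-scaled CPM), divided into the 5 genes with the highest mean CPM, Gene022340 and the other 17 genes. Both immature females reach at least 663.8 CPM and the other libraries stay at or below 495.0 CPM, and Gene022340 is a visible part of the bar in immature female 2.

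Most serpin RNA came from a few genes. Gene005463, a full-length gene with a signal peptide that matched Spn88Ea, held on average 40.7% of the serpin level, and between 19.7% and 58.4% in single libraries. In Drosophila, Spn88Ea acts in wing expansion and restrains the Toll pathway. Gene005463 was the most abundant serpin in 9 of 10 libraries. In mature male 2, Gene009907 took its place. The 5 genes with the highest mean CPM together held 77.8% of the serpin level on average.

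Relative to coding length the order of the most abundant serpins differed slightly. Gene005463 averaged 155.4 CPM per kilobase over the libraries, with a range from 58.9 to 199.2. Gene005568, a C-terminal piece matching Spn42Da, followed at 96.4 (38.5 to 197.6), and Gene009907 at 66.8 (25.6 to 113.2). Gene000469 stood at 26.7 (14.3 to 55.5) and Gene005843, an N-terminal piece, at 18.8 (6.14 to 36.3). The ranges of neighbours in this order overlapped at every step. Compared library by library, Gene009907 stayed above Gene000469, while the other neighbours changed order in some libraries. Both Gene000469 and Gene005843 matched Spn42Da, and neither had a predicted signal peptide, although the start of Gene005843 may be missing. The lowest mean level per kilobase was that of Gene025811, at 1.83, although this gene reached 13.7 in mature male 3.

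Across libraries, the highest level of 14 of the 23 serpin genes lay in an immature female, 7 in each of them. Among all tested genes 24.6% had their highest level there. Another 3 serpin genes were highest in mature male 2 and 2 in immature male 1. The remaining 4 were highest in immature male 2, immature male 3, mature female 1 and mature male 3. Both immature females stood above all other 8 libraries for 4 serpin genes, Gene003578, Gene005568, Gene005843 and Gene007576, whereas 2.67% of all tested genes did so. No serpin gene had both immature females below the other libraries, as 2.21% of all tested genes had.

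**Figure D2:**
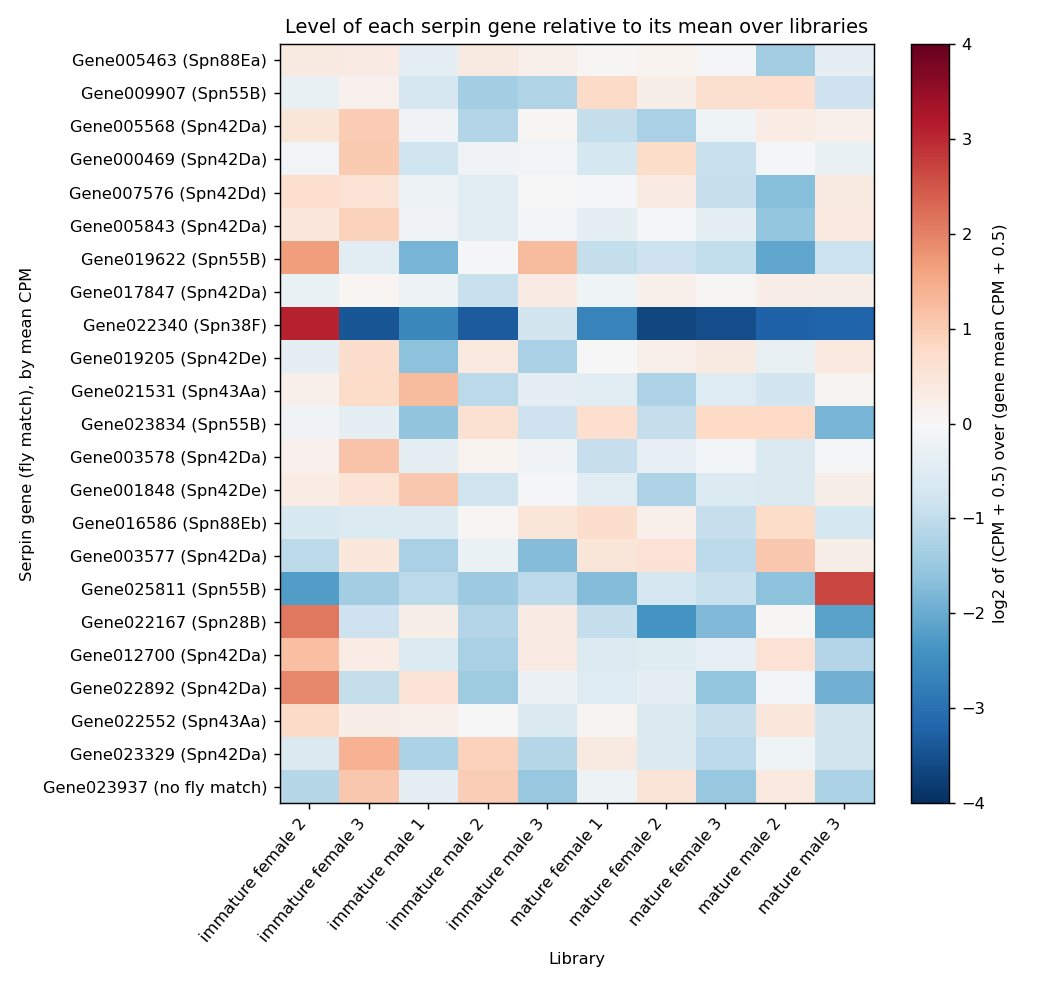
Level of each of the 23 serpin genes (rows, by mean CPM) in each library (columns), as log2 of CPM plus 0.5 relative to the mean of the gene plus 0.5. Red is above and blue below the mean of the gene, and the colour scale ends at 4 in either direction. Gene022340 stands out in immature female 2 and Gene025811 in mature male 3, while the remaining genes vary less.

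Immature and mature brains were first compared within females. No serpin gene was called at an adjusted p under 0.05 by the quasi-likelihood test of edgeR, which called 0% of all tested genes here. An unadjusted p under 0.05 was reached by 5 serpin genes, all lower in mature females (5.88% of all tested genes reached it as lower, and 10.5% in either direction). The likelihood ratio test of edgeR and DESeq2 each called 1 serpin gene, Gene022340, as lower in mature females, and called 0.562% and 0.602% of all tested genes as lower. In direction, 17 of 23 serpin genes were lower in mature females (51.3% of all tested genes were lower), with a median log2 fold change of -1.02 beside -0.02 over all tested genes. The groups did not overlap for 11 serpin genes that were lower in mature females and for 1 that was higher, while 14.4% and 10.7% of all tested genes were so separated. The median was -0.64 without immature female 3.

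Gene022340, which matched Spn38F and in Swiss-Prot glia-derived nexin, a mammalian thrombin inhibitor made by glia and other cells, was the serpin with the lowest p in females. It had 1080 counts in one immature female (2) and only 4 in the other (3). The mature females had 10, 1 and 4 counts, the immature males 6, 3 and 47, and the mature males 6 and 6. The value of immature female 2 was thus far above all others, and the other immature female lay within the range of the mature females. Between mature and immature females it differed by -6.06 on the log2 scale, with an SE of 1.66 and an adjusted p of 0.362 in the quasi-likelihood test of edgeR. The adjusted p was 0.0168 from the likelihood ratio test and 0.00193 from DESeq2. Without immature female 2 the log2 fold change was 0.50, so the direction rested on that library. Gene022341, a reading frame without a match that overlaps it on the other strand, had 192 counts in immature female 2 and at most 5 elsewhere.

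Gene005568 showed the clearest separation of females by stage among the abundant serpins. Its counts of 767 and 808 in the immature females and of 205, 56 and 427 in the mature females corresponded to 59.9 and 88.3 CPM against 22.0, 17.2 and 38.5 CPM. No mature female reached the level of either immature female. The log2 fold change was -1.51 (SE 0.43, unadjusted p = 0.00654 and adjusted p = 0.373 by edgeR), and it stayed between -1.93 and -1.20 when any 1 library was left out. Serpin B4, the closest Swiss-Prot protein of this gene, is an intracellular human serpin.

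Of the serpin genes higher in mature females, those with the lowest p were Gene009907 and Gene016586. Gene009907 was at 68.1 and 94.2 CPM in the immature females and at 142.0, 99.3 and 131.3 CPM in the mature females. The groups did not overlap, yet the log2 fold change of 0.62 (SE 0.44, adjusted p = 0.608 by edgeR) was small beside its error. Gene016586, a middle piece matching Spn88Eb, was at 2.03 and 2.19 CPM in immature females and at 5.79, 4.00 and 1.53 CPM in mature females. These ranges overlapped (log2 fold change 0.83, SE 0.66, adjusted p = 0.649 by edgeR), and the value was 0.29 without mature female 1.

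Between immature and mature males, the quasi-likelihood test called 0 serpin genes (0.00802% of all tested genes), as did the likelihood ratio test (0.517%) and DESeq2 (1.02%), with 4 at an unadjusted p under 0.05 (7.44% of all tested genes). Here 11 serpin genes were higher and 12 lower in mature males (48.9% of all tested genes were higher), and the median log2 fold change of -0.04 was close to that of all tested genes (-0.01). Groups were separate for 2 serpin genes, both higher in mature males, as for 11.4% of all tested genes.

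The serpin with the lowest p in males was Gene025811, a full-length gene with a signal peptide that matched Spn55B. It had 171 counts in mature male 3 and 4 in mature male 2, while the immature males had 4, 3 and 7. The mature females had 3, 4 and 11 counts and the immature females 1 and 5. Only mature male 3 stood out. The log2 fold change of 3.58 (SE 1.21, adjusted p = 0.603 by edgeR) became -0.90 when mature male 3 was left out. Gene025812, which overlaps it on the same strand, had 31 counts in that library and at most 4 in the others.

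Gene009907 was at 52.7, 32.1 and 36.3 CPM in the immature males but at 135.0 and 46.5 CPM in the mature males. The mature males thus differed from each other by more than the immature males did, and mature male 3 lay within the immature range. The stage difference was 1.17 on the log2 scale (SE 0.43, adjusted p = 0.604 by edgeR), with 0.26 without mature male 2 and 1.74 without mature male 3. The most abundant serpin, Gene005463, was at 151.5, 254.0 and 229.4 CPM in immature males and at 75.1 and 155.9 CPM in mature males. Mature male 2 was the lowest of all 10 libraries for this gene. The log2 fold change was -0.87 (SE 0.34, adjusted p = 0.622 by edgeR), with -0.39 without mature male 2 and -1.50 without mature male 3. Gene019622, a full-length gene matching Spn55B, was at 3.36, 13.03 and 33.2 CPM in immature males and at 2.80 and 7.18 CPM in mature males (log2 fold change -1.74, SE 0.92, adjusted p = 0.746 by edgeR), and its log2 fold change without immature male 3 was -0.72.

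Over both sexes, the quasi-likelihood test called 0 serpin genes (0% of all tested genes), with 7 at an unadjusted p under 0.05 (15.1% of all tested genes). Gene022340 was called as lower in mature brains both by DESeq2 and by the likelihood ratio test, which called 1.75% and 1.5% of all tested genes as lower. It differed by -4.07 on the log2 scale (SE 1.21), with an adjusted p of 0.235 in the quasi-likelihood and 0.0216 in the likelihood ratio test of edgeR and of 0.00345 in DESeq2. Without immature female 2 it was -0.75. The median log2 fold change of the serpins was -0.54, with 16 of 23 lower in mature brains (51.2% of all tested genes were lower). No serpin gene had all 5 mature libraries above or below all 5 immature ones, while 1.5% and 1.91% of all tested genes did.

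Gene019622 came next, with a difference over both sexes of -1.85 on the log2 scale (SE 0.63, adjusted p = 0.263 by edgeR). Its levels were uneven among immature spiders, at 44.0 CPM in immature female 2 and 33.2 CPM in immature male 3 against 3.36 to 13.03 CPM in the other 3. The 5 mature libraries lay between 2.80 and 7.38 CPM. Without immature female 2 its log2 fold change was -1.10. In the opposite direction, Gene009907 was higher in mature brains (log2 fold change 0.89, SE 0.31, adjusted p = 0.268 by edgeR), and 0.46 without mature male 2. For Gene025811 the stage difference was 2.49 (log2, SE 0.97, adjusted p = 0.291 by edgeR), which was 0.25 without mature male 3.

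**Figure D3:**
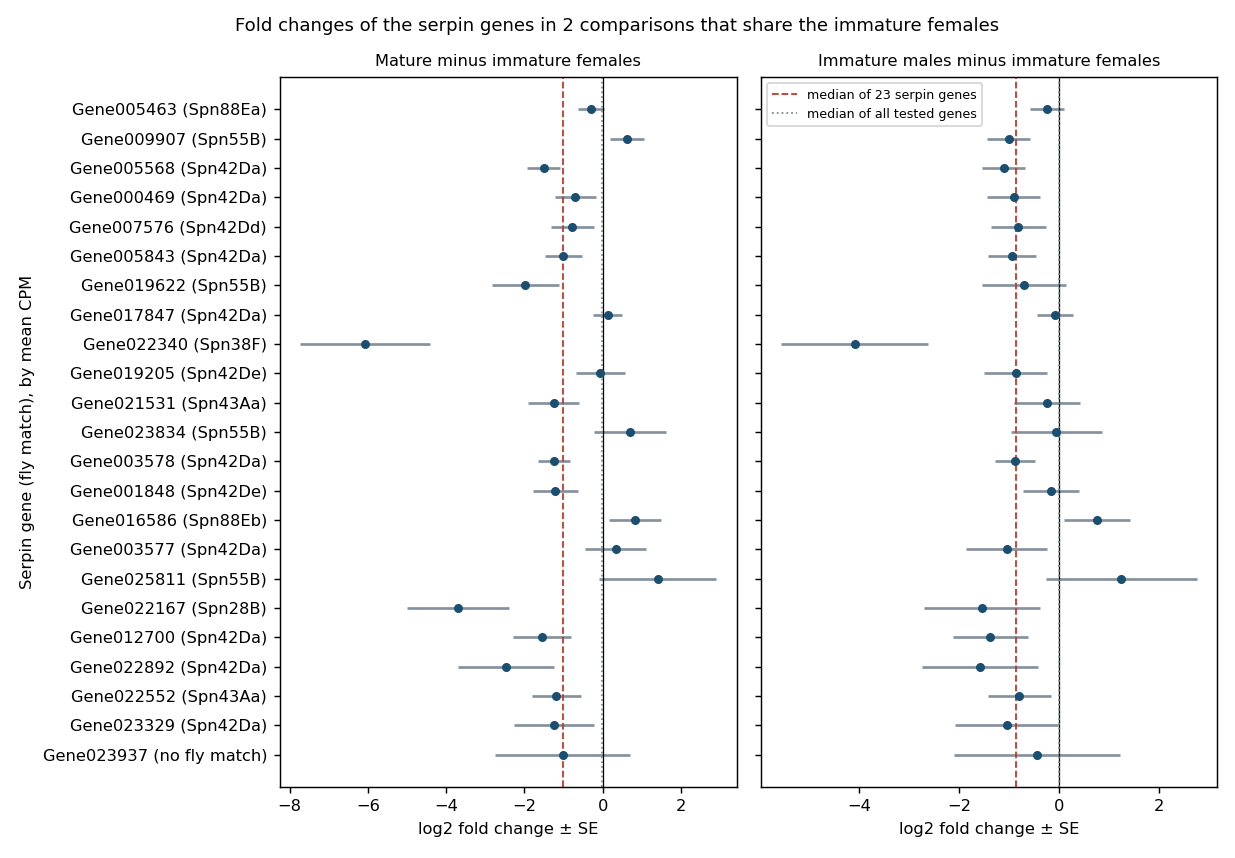
Log2 fold change with its SE (horizontal axis) of each of the 23 serpin genes, for mature minus immature females on the left and immature males minus immature females on the right. The serpin medians, -1.02 and -0.87, lie left of the medians of all tested genes. The same 2 immature female libraries enter both comparisons.

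Males and females were compared first among immature spiders, where the female libraries are those used above. The quasi-likelihood test, the likelihood ratio test and DESeq2 each called 0 serpin genes, against 0.0321%, 0.566% and 0.931% of all tested genes, and 3 serpin genes had an unadjusted p under 0.05, all lower in males (2.8% of all tested genes as lower, and 6.01% in either direction). Nevertheless, 21 of 23 serpin genes were lower in immature males (50.1% of all tested genes were lower), with a median log2 fold change of -0.87. The groups were separate for 7 serpin genes, all lower in males, as for 7.6% of all tested genes, while 7.4% were separate and higher in males. Without immature female 3 the median was -0.25.

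Gene022340 again had the lowest p (log2 fold change -4.08, SE 1.47, adjusted p = 0.715 by edgeR), and its direction turned to 2.41 without immature female 2. Gene005568 was at 39.3, 18.9 and 44.9 CPM in the immature males, below both immature females (log2 fold change -1.11, SE 0.43, adjusted p = 0.753 by edgeR). The genes higher in immature males were Gene016586 and Gene025811. Gene016586 was at 2.17, 3.51 and 4.91 CPM in the males, overlapping the females (log2 fold change 0.76, SE 0.66, adjusted p = 1.0 by edgeR), and its value ran from 0.44 without immature male 3 to 1.00 without immature male 1. Gene025811 had at most 7 counts in any immature library (log2 fold change 1.24, SE 1.50, adjusted p = 1.0 by edgeR), and its value ran from 0.33 without immature female 2 to 2.96 without immature female 3.

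Among mature spiders, the quasi-likelihood test called 0 serpin genes (0.0401% of all tested genes), as did the likelihood ratio test (0.181%) and DESeq2 (0.201%). An unadjusted p under 0.05 was found for 2 serpin genes (2.47% of all tested genes). In mature brains 14 serpin genes were higher and 9 lower in males (47.7% of all tested genes were higher), and the median log2 fold change was 0.10. Without mature female 1 it was 0.46. Groups were separate for 2 serpin genes higher in males and 1 lower, while 6.26% and 7.65% of all tested genes were so separated. The serpin lower in males was Gene005463, at 203.0, 220.4 and 191.4 CPM in females against 75.1 and 155.9 CPM in males (log2 fold change -0.83, SE 0.34, adjusted p = 1.0 by edgeR). Its log2 fold change was -0.38 without mature male 2 and -1.45 without mature male 3. Gene005568, at 52.6 and 49.4 CPM in mature males, was above all mature females (log2 fold change 0.97, SE 0.43, adjusted p = 1.0 by edgeR). For Gene025811 the difference of males from females was 3.41 on the log2 scale (SE 1.20, adjusted p = 1.0 by edgeR), which was -1.09 without mature male 3. For Gene009907 the value was -0.45 (SE 0.44, adjusted p = 1.0 by edgeR), with 0.12 without mature male 3 and -1.41 without mature male 2.

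Over both stages, the quasi-likelihood test called 0 serpin genes (0.0401% of all tested genes), as did the likelihood ratio test (0.377%) and DESeq2 (0.481%), with 2 at an unadjusted p under 0.05 (4.45% of all tested genes). The median log2 fold change was -0.38, with 18 of 23 serpin genes lower in males (50.9% of all tested genes were lower), and it was -0.15 without immature female 3. Gene009907 was lower in males by a log2 fold change of -0.73 (SE 0.31) and Gene005463 by -0.53 (SE 0.24), each with an adjusted p of 1.0 by edgeR. The value of Gene009907 was -0.44 without mature male 3 and -1.21 without mature male 2, and that of Gene005463 was -0.31 without it and -0.85 without mature male 3. Gene025811 was at 2.33 (SE 0.97, adjusted p = 1.0 by edgeR), and at 0.07 without mature male 3. Gene016586 was at 0.41 (SE 0.46, adjusted p = 1.0 by edgeR), and at -0.12 without mature male 2. No serpin gene separated all males from all females, as 0.237% of all tested genes did with males higher and 0.357% with males lower.

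Whether the stage difference depended on sex was tested as an interaction. Its median over the serpin genes was 0.84 on the log2 scale, beside -0.04 over all tested genes. It was positive for 20 of 23 serpin genes and for 11750 of 24930 tested genes. The immature female libraries used above enter this comparison too, and the median was not computed without single libraries. No serpin gene was called by the quasi-likelihood test (0% of all tested genes), the likelihood ratio test (0.0562%) or DESeq2 (0.124%), and 1 had an unadjusted p under 0.05 (3.2% of all tested genes). This was Gene005568, with an interaction of 2.08 on the log2 scale (SE 0.61, unadjusted p = 0.00753 and adjusted p = 1.0 by edgeR). In it, the male libraries lay below the female ones at the immature stage and above them at the mature stage, without overlap at either stage. Gene012700, a C-terminal piece matching Spn42Da, had an interaction of 1.91 (SE 1.07, adjusted p = 1.0 by edgeR), from 3.79 ± 1.81 CPM (SD, n = 2) in immature females, 1.42 ± 1.05 (SD, n = 3) in immature males, 1.28 ± 0.141 (SD, n = 3) in mature females and 1.88 ± 1.82 (SD, n = 2) in mature males. It was 0.27 without mature male 2.

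**Figure D4:**
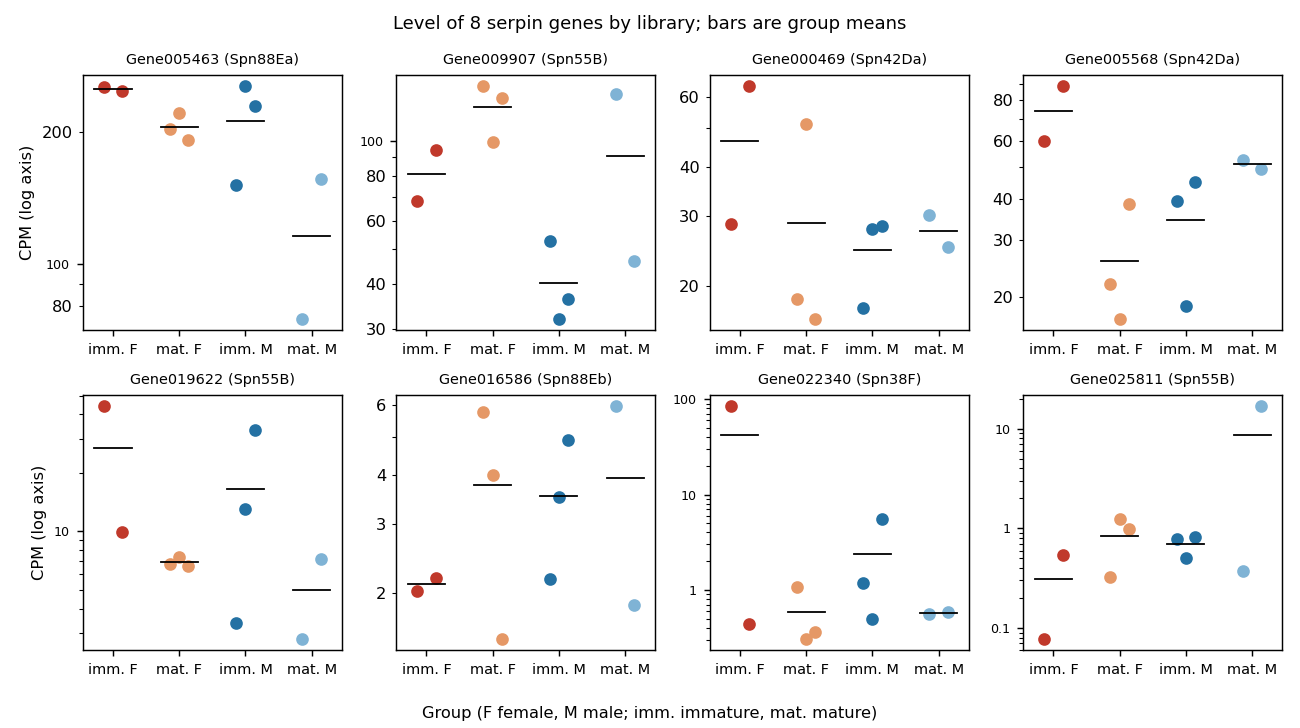
Level (CPM, log axis) of 8 serpin genes in each library, grouped by sex and stage, with bars for group means. Gene005568 shows the opposite order of the sexes at the 2 stages, while the immature female mean of Gene022340 and the mature male mean of Gene025811 are each set by 1 library.

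The other serpin genes are described by their ranges, and were singled out with their values known. Gene007576 (Spn42Dd), a full-length gene with a signal peptide, lay between 5.87 and 32.5 CPM with both immature females highest. Gene017847 (Spn42Da) was the most even member, at 6.68 to 16.4 CPM, and the highest library was 2.45 times the lowest. Gene019205 (Spn42De), whose closest Swiss-Prot protein was human neuroserpin, lay between 2.57 and 15.1 CPM. It was lowest in immature males 1 and 3, at 2.57 and 3.39 CPM, while immature male 2 was at 11.9 CPM. Gene021531 (Spn43Aa) and Gene001848 (Spn42De) were both highest in immature male 1, at 19.6 and 11.1 CPM. Gene001848 resembled human plasminogen activator inhibitor 1.

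Gene023834 (Spn55B), an N-terminal piece, lay between 1.57 and 12.6 CPM, and the mature males held both its highest and its lowest level. Gene003578 lay between 3.32 and 15.5 CPM, and Gene003577 between 0.584 and 7.18 CPM, the latter with both mature males above all 3 immature males. Gene022552 and Gene023329 had at most 40 and 47 counts in any library. Gene023937 had no reads in immature male 3 and mature female 3 and at most 23 counts elsewhere.

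Gene022892, an N-terminal piece, and Gene022167, a C-terminal piece, had similar counts in most libraries. They were 104 and 138 in immature female 2, 6 and 9 in immature female 3, 14 and 13 in immature male 1, 2 and 4 in immature male 2 and 12 and 24 in immature male 3. In the mature females the pairs were 10 and 8, 4 and 0, and 3 and 3, and in the mature males 17 and 24, and 1 and 1. Whether both are pieces of 1 transcript was not tested. In each, immature female 2 held the largest part of the summed level, 46.3% for Gene022892 and 50.7% for Gene022167.

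One library held over 50% of the summed level in 3 of 23 serpin genes (Gene022340, Gene022167 and Gene025811), and in 3.25% of all tested genes. For 1 serpin gene, Gene022340, the share was over 75%, as for 0.943% of all tested genes. For 9 serpin genes the representative sequence came from the assembly of a single library. Of these, 6 were also highest in that library, whereas this held for 35.7% of the 7264 tested genes with such a sequence. The 6 included Gene022340 and Gene025811.

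Possible targets and partners of serpins were measured in the same fits. Of 66 genes with a trypsin-like protease domain, 61 were tested. The quasi-likelihood test called 2 of them higher in mature than in immature males, which were all the genes it called there (0.00802% of all tested genes), and 3 higher in males than in females among mature spiders (0.0361% of all tested genes were called in that direction), and none in the remaining comparisons. Their median log2 fold change was -0.84 between mature and immature females and -0.46 between immature males and females, in the same direction as that of the serpins. Haemocyanin genes, whose products can also act as phenoloxidases in chelicerates, had medians of -5.18 and -4.29 (5 genes). Their summed level was uneven, at 15715 CPM in immature female 3 and 2347 CPM in immature female 2, while mature male 2 was at 2842 CPM. Of these genes, 3 had no reads in at least 1 library. The only gene with a clip domain, found in proteases of the melanin and Toll cascades, was at -1.93 and -1.04.

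Other protease inhibitors did not show 1 common direction. In the female stage comparison the median was -0.46 for 17 Kunitz genes, 0.20 for 31 Kazal genes, -0.72 for 11 genes with the trypsin inhibitor like cysteine rich domain, 0.20 for 6 alpha-2-macroglobulin genes, -0.42 for 4 tested WAP genes and -0.84 for 4 cystatin genes. It was -0.06 for 9 subtilases, -0.72 for 13 papain-like cysteine proteases and 0.70 for 12 Spaetzle genes, which encode ligands of Toll receptors. It was -0.01 for 3 tested peptidoglycan recognition genes and -0.49 for 15 tested astacin proteases, enzymes of spider digestive fluid. Pacifastin domains were found in 0 genes. The quasi-likelihood test called no gene of these lists in any comparison, and none of haemocyanin, the clip domain, or the neuronal and muscle markers. Neuronal and muscle markers had medians of 0.57 and 0.84 in females.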

How the data were processed

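RNA from the brains of 10 individual spiders was analysed. The authors trimmed reads, assembled them with Trinity and CAP3, predicted and clustered coding sequences, aligned reads with BWA-MEM and deposited raw counts per gene without normalization. They also deposited text annotation (BLAST, Pfam and signal peptide entries), in which 14278 of 25943 rows stood 1 column to the left and were moved back. No sequences were used here.

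Counts were fitted in R 4.3.3 with edgeR 4.0.16 (filterByExpr with a minimum count of 10, TMM, quasi-likelihood F test, 4 group means), which tested 24930 genes. Benjamini-Hochberg adjusted p under 0.05 over all tested genes was the threshold. SE is the absolute log2 fold change divided by the square root of F. The fits were tested on simulated data. Alternatives were the likelihood ratio test used in the study, DESeq2 1.42.0, RLE factors, no filter, a newer dispersion estimate, a replicate block, leaving out overlapping serpins and leaving out each library.

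Genes named were those called by either test of edgeR, the 2 with the lowest p per comparison and direction (and for the interaction), the 5 highest per kilobase, and the highest serpin of each library; others were chosen with values seen. Members and lists were chosen with earlier results of these data known. With 2 or 3 spiders per group, precision is limited by the number of spiders and, for genes under about 10 counts, by depth.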

Additional observations from a re-analysis of the deposited data

Results flagged for a closer look

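Within each stage, the summed serpin level and the 10 genes named by rule were examined for single libraries far from the rest, where the distance to the next library as a share of the range over 5 libraries passed Dixon's critical value of 0.71. This was so in 5 of 22 groups. Chance passes about 1 in 20 groups of unselected values, but these genes were named for their low p or high level in the same counts and the sum contains them, so the number of groups is not read against chance. Gene022340 was at 84.3 CPM in immature female 2, with the next immature library at 5.49 CPM. Gene025811 was at 16.8 CPM in mature male 3, with the next mature library at 1.23 CPM. Gene000469 was at 64.0 CPM in immature female 3, with the next at 28.7 CPM. Gene005463 was lowest in immature male 1, at 151.5 CPM, with the next at 229.4 CPM. Gene019622 was lowest in mature male 2, at 2.80 CPM, with the next at 6.59 CPM. These 5 values lie in 5 different libraries.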

How the results depend on the processing

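The quasi-likelihood test called 0 serpin genes in each of 7 comparisons, and also with RLE factors, no filter, the newer dispersion estimate, the replicate block, without overlapping serpins and in each fit without 1 library (0 to 0). The likelihood ratio test and DESeq2 each called 1 serpin gene in females and 1 over both sexes, Gene022340, with log2 fold changes of -6.11 and -6.12 in females and -4.08 and -4.10 over both sexes. Replicate numbers were shared by the groups. Correlations of deviations from the group mean between same-numbered libraries ran from -0.36 to 0.30. With so few libraries per group these deviations depend on each other, so the correlations cannot decide whether the numbers pair libraries. With the replicate block 0 serpin genes were called.

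Without 1 library, the serpin median ran from -1.10 to -0.64 in females, -0.10 to 0.14 in males, -0.61 to -0.38 over both sexes, -0.90 to -0.25 between the sexes in immature, -0.065 to 0.46 in mature spiders and -0.47 to -0.15 over both stages. Direction was followed for the 26 pairs of a gene and a comparison that the naming rule gave. Among these, it reversed for Gene022340 in females (-7.05 to 0.50) and between immature sexes (-5.66 to 2.41). For Gene025811 it reversed in males (-0.90 to 4.60) and between mature sexes (-1.09 to 4.40). Gene009907 reversed between mature sexes (-1.41 to 0.12) and Gene016586 over both stages (-0.12 to 0.71). Serpin genes outside these pairs reversed too, such as Gene023329 in females (-2.14 to 0.43) and between immature sexes (-2.77 to 0.62).

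The summed level of each library, as a percent of the mean over libraries, was compared with that of the main setting. Only libraries that moved by at least the SD within groups are listed here. Without Gene005463, 6 of 10 libraries moved. The values were 146.8 and 144.7 in immature females 2 and 3, and 62.8 and 84.0 in immature males 2 and 3. Mature female 2 was at 95.4 and mature male 2 at 106.5. The share of all counts held by all serpin genes, Gene005463 included, was 153.5 in immature female 2 and 89.0 and 94.9 in mature females 1 and 2, again as a percent of the mean. With only Gene022340 left out, an alternative chosen after seeing the data, the summed level was 124.1 in immature female 2. The cause was not tested. Without mature female 2, Gene025811 did not pass the filter and gave no value.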

Other observations

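The level of Gene022340 was concentrated in immature female 2, which held 88.9% of its summed CPM. Among all tested genes, 31 had over 75% of their summed CPM in this library, against 71 in immature male 1, 83 in immature male 3 and between 2 and 24 in the other 7. The following genes were singled out after their values were seen. Those of the 31 with a match to a known protein included Gene022354 (Cht5, a chitinase that degrades old cuticle at molting, 98.6% in this library), Gene019783 (Hexo2, a hexosaminidase, 81.9%), Gene016420 (Cpr100A, a cuticle protein, 91.0%) and Gene022315 (pio, a zona pellucida domain protein of the apical matrix, 93.1%). Genes of cuticle were not particular to this library. Gene001914 (Cpr92A) had 91.8% of its summed CPM in immature male 1, where further Cpr genes were also concentrated. Gene023377 (dyl, a zona pellucida domain protein) had 91.0% in immature male 3. Gene022340 was at 1.19 CPM in immature male 1 and at 5.49 CPM in immature male 3. Outside these libraries and immature female 2 it lay between 0.31 and 1.07 CPM. Whether the level of Gene022340 is linked to genes of cuticle was not tested. In immature female 2, Gene022357, at 84.6%, matched NT1, a relative of Spaetzle. Whether Gene022340 is expressed in the same cells was not tested.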
